A study of Mus musculus with 6 samples.

Results

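The Notch pathway was followed in whole back skin through 9 genes: the receptors Notch1, Notch2, Notch3 and Notch4, the ligands Jag1, Jag2 and Dll1, and the target genes Hes1 and Hey1. They were found by the gene name that the scanner files give each probe, which matched 9 of 9 genes and 13 probes, of 27310 gene names and 41115 probes on the array. All 13 probes were well above background on every one of the 6 arrays. The mice were females of the inbred strain C57BL/6J, aged 6 to 8 weeks at treatment. For 7 days the back skin received 62.5 mg of cream daily, which held 5% imiquimod in one group and was the vehicle cream in the other. Imiquimod activates the receptor Tlr7, and repeated application inflames mouse skin in a way that resembles psoriasis. Each group held 3 samples, each hybridised to 1 single-colour Agilent array. The titles number the samples without saying that each came from its own animal, so a p-value here reads only sample-to-sample spread, part or all of which may be technical.

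Notch receptors are single-pass proteins that are cut on contact with a ligand on a neighbouring cell. Metalloproteases of the Adam family and then the gamma-secretase complex release the intracellular part, which enters the nucleus, joins the DNA-binding protein Rbpj and switches on targets such as the Hes and Hey repressors. In the epidermis Notch1 promotes the exit of basal cells into differentiation, in the hair follicle Notch1, Jag1 and Jag2 are active in the matrix and the inner root sheath, and in vessels Notch4 and Dll4 mark endothelium while Notch3 marks smooth muscle and pericytes.

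The treatment of each array was not recorded in a single way. All 6 scanner files were deposited under a sample of one treatment while their names gave the other. In the deposited value table, read by sample title, each column matched the scanner file named for that treatment and number (Spearman correlation of at least 0.999 over 24253 probes, against at most 0.953 with a file of the other group). Arrays are called imiquimod or vehicle here by the word in the file name, which is also what that table gives. Read as filed, every difference given below would take the opposite sign. Of 10 genes of hyperproliferative keratinocytes, 9 were higher in the arrays so named imiquimod, with a median log2 difference of 5.04. The defining genes of skin were bright in all arrays: the summed signal of 7 basal keratinocyte genes was 897 to 1062 times the 75th percentile signal in the imiquimod arrays and 488 to 631 times in the vehicle arrays. By their barcodes, slide 1 held the 3 vehicle arrays and imiquimod array 1, and slide 2 held imiquimod arrays 2 and 3. Arrays had a 75th percentile signal of 861 to 1106 and 61.2% to 67.4% of probes well above background; precision is limited by their number.

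Among the 9 genes, Notch4 rose in imiquimod-treated skin, Notch1 and Jag2 fell, and 6 did not pass the test (limma, Benjamini-Hochberg adjusted p under 0.05 over all 17778 genes tested). Across all genes 23.6% were called, 13.1% as higher and 10.5% as lower, so 1 of 9 higher and 2 of 9 lower is no more than a list of this size could show at that background. The groups did not overlap in 4 of the 9 genes, 2 higher and 2 lower, against 46.6% of all genes, 25.9% higher and 20.7% lower. Of these 4, Notch3 overlapped in the value table. The median log2 difference of the 9 genes was -0.12, and that of all genes was 0.023. Levels are given below as log2 of the signal relative to the 75th percentile of the same array, and a difference is the mean of the imiquimod arrays minus that of the vehicle arrays. The signals of different probes have no common scale, so levels are compared only within a gene.

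**Figure D1:**
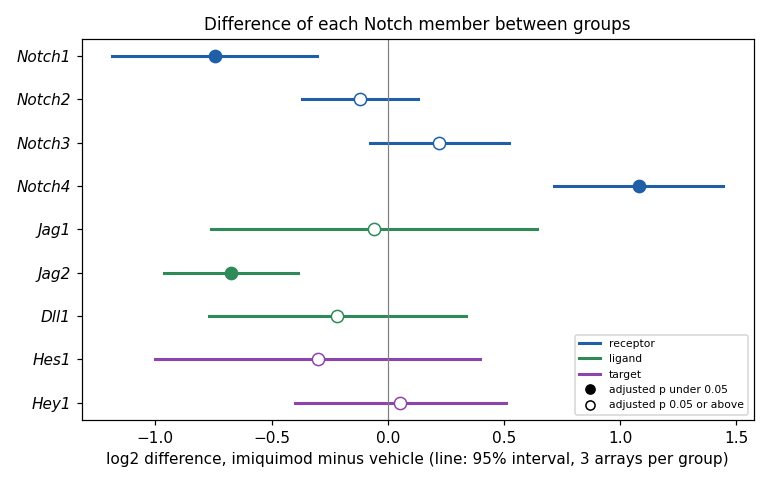
The log2 difference between imiquimod and vehicle arrays (x axis) for the 9 Notch genes (y axis), with a 95% interval from limma over 3 arrays per group and filled points where the adjusted p was under 0.05. The intervals of Notch1, Jag2 and Notch4 lie away from 0, and those of the other genes span it.

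The sequence just before the start site was compared between the genes that were called, because Notch1 and Jag2 fell while Notch4 rose. RefSeq promoters (build GRCm38.p6) were matched for 7 of the 9 genes, 8 windows in all since Dll1 has 2 start sites. The 250 bases upstream of each start site are shown 5′ to 3′ on the gene's strand for the 3 called genes, with each GGGCGG, the GC box, in capitals on either strand.
Notch1, chr2:26503823-26504072, minus strand: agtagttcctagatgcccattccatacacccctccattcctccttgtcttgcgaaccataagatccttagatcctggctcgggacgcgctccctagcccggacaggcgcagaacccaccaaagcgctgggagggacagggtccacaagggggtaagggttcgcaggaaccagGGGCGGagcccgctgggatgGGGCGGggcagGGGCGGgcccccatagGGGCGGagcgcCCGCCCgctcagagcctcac
Jag2, chr12:112929496-112929745, minus strand: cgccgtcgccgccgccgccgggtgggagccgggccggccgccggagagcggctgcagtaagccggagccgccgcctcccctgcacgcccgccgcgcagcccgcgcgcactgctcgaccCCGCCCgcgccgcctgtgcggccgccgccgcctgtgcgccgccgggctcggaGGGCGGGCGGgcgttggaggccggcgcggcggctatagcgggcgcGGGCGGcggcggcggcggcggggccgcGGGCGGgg
Notch4, chr17:34564045-34564294, plus strand: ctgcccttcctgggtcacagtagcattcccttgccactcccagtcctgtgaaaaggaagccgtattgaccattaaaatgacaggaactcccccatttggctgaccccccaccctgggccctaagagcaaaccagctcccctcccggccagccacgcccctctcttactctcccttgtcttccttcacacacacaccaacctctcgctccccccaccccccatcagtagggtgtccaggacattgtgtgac
The Notch1 and Jag2 windows each held 5 GC boxes, of which 2 in Jag2 overlap each other, and the Notch4 window held 0. GC content was 66.0% for Notch1, 87.2% for Jag2 and 58.4% for Notch4, against a median of 52.4% over 32841 promoter windows. The GC box was also present in the windows of Notch2 and Notch3, which did not pass the test, and in 32.7% of all windows. It was absent from the Jag1 window and both Dll1 windows, whose genes did not pass either. GC content was 72.0% for Notch2, 68.8% for Notch3, 57.2% for Jag1, and 64.0% and 56.0% for the Dll1 windows. The letters TGGGAA, the core bound by Rbpj, were in 0 of the 8 windows and in 21.6% of all windows. TGANTCA, the AP-1 motif, was in 1 window, at 1 of the Dll1 start sites, and in 6.75% of all, and CACGTG, the E-box, was in 0 and in 6.02%. All motifs were searched on both strands and no match of one overlapped a match of another. A match describes these letters only.

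Notch1, the receptor that drives the switch of keratinocytes from growth to differentiation, was measured by a probe at chr2:26314772-26314830 (mm9) that is spotted 10 times on each array. Its level was 1.20, 1.59 and 1.01 in vehicle arrays 1, 2 and 3. In imiquimod arrays 1, 2 and 3 it was 0.67, 0.38 and 0.52. All imiquimod arrays lay below all vehicle arrays. Notch1 thus fell by 0.74 on the log2 scale, with SE 0.18 and adjusted p = 0.0336 in limma, and was 1.68-fold lower in imiquimod-treated skin, from 1.27 ± 0.30 to 0.52 ± 0.14 (SD, n = 3). In whole skin, fewer cells of a type and less RNA per cell cannot be told apart. The second Notch1 probe, at chr2:26314830-26314889, read 0.93, 1.38 and 0.78 in the vehicle arrays and 0.36, -0.031 and 0.073 in the imiquimod arrays. It had the same direction and no overlap between groups either (difference -0.90, adjusted p = 0.0268 in the limma fit over 27415 probes, where 21.2% were called, 9.72% as lower). The value table gave a Notch1 difference of -0.77.

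The repeated spots of Notch1 showed how much of this spread was measurement within an array. The SD of the 10 spots was 0.045 to 0.093 in each array, while the SD between array means was 0.30 in vehicle and 0.14 in imiquimod skin. The spots speak for the measurement of each array and not for the difference between groups. The Notch1 call was lost without imiquimod array 1, 2 or 3 (adjusted p = 0.0773, 0.110 and 0.100) and without vehicle array 1 (adjusted p = 0.0931). Blocking on slide ended it too (difference -0.60, adjusted p = 0.237), as did the comparison within slide 1 (adjusted p = 0.370). With replicate number as a block it was lost at adjusted p = 0.0856, with no filter on dim probes at 0.0653, and without vehicle arrays 2 and 3, which the scanner software's quality report marked evaluate, at 0.0670. The difference was -0.87 to -0.58 over all 17 alternatives.

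**Figure D2:**
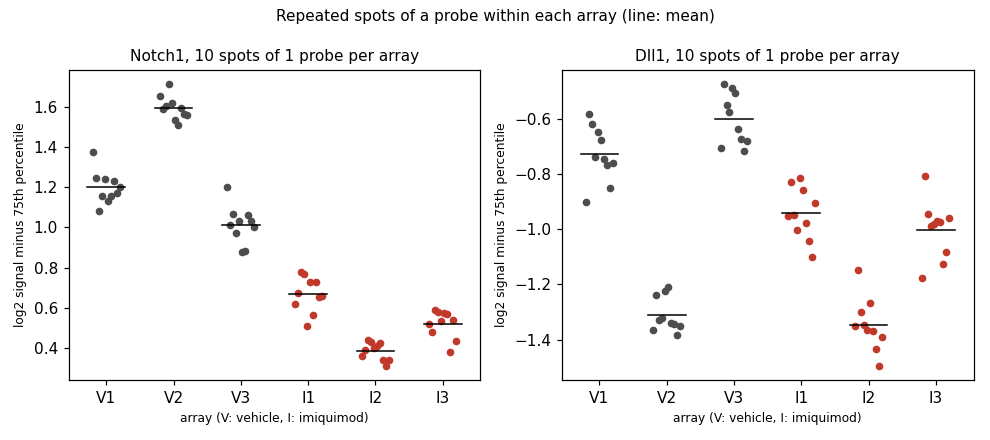
The log2 signal relative to the 75th percentile of the array (y axis) of each of 10 spots of the Notch1 probe and of the Dll1 probe, by array (x axis, V vehicle in grey, I imiquimod in red, lines at the mean). Notch1 spots of the vehicle arrays, from 0.88 upward, lie above those of the imiquimod arrays, which reach 0.78. For Dll1 the means of vehicle array 2 and imiquimod array 2 are the lowest.

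Notch4, the receptor largely restricted to endothelium, moved the other way. The probe at chr17:34725120-34725179 (mm9) read -1.33, -1.50 and -1.26 in vehicle arrays 1, 2 and 3. It read -0.055, -0.49 and -0.31 in imiquimod arrays 1, 2 and 3, all of them above every vehicle array. Notch4 rose by 1.08 (SE 0.15, adjusted p = 0.00704 in limma), a 2.11-fold higher signal in imiquimod-treated skin, from -1.36 ± 0.12 to -0.28 ± 0.22 (SD, n = 3). A larger absolute difference was found in 13.7% of all genes tested, against 22.4% for Notch1 and 25.4% for Jag2. The value table gave 1.09. Blocking on slide left Notch4 called (1.31, adjusted p = 0.0293), as did leaving out any single array (adjusted p of 0.0116 to 0.0343), and among the 17 alternatives it was lost only within slide 1 (1.31, adjusted p = 0.0998), where 3 vehicle arrays met 1 imiquimod array.

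Endothelial genes were higher in the same arrays. Of 10 endothelial markers 8 were called higher, with a median difference of 1.14, led by Tie1 and Emcn at 1.47 and 1.46. Their summed signal was 27.3 to 30.5 in the imiquimod arrays and 10.68 to 17.1 in the vehicle arrays, and all 10 markers were above background on at least 1 array. Dll4, an endothelial Notch ligand that is not among the 9 genes, rose by 1.12 (SE 0.24, adjusted p = 0.0240). Its level was -5.44, -4.80 and -4.71 in vehicle arrays 1, 2 and 3 and -3.65, -4.13 and -3.82 in imiquimod arrays 1, 2 and 3. The Dll4 call was lost without imiquimod array 1, 2 or 3 (adjusted p = 0.0860, 0.0512 and 0.0814), without vehicle array 1 (adjusted p = 0.0511) when blocked on slide (1.33, adjusted p = 0.0974) and when blocked on replicate number (adjusted p = 0.0711). With normexp background correction the Dll4 difference was 0.43 (adjusted p = 0.0769). The part of the endothelial markers in the Notch4 and Dll4 results was not tested.

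Notch2 and Notch3, the other receptors, did not pass. Notch2 is made by several skin cell types, and its brightest probe (chr3:97953914-97953973, mm9) read 2.07, 2.19 and 2.17 in the vehicle arrays and 2.10, 2.01 and 1.95 in the imiquimod arrays. These ranges overlap, and the difference of -0.12 had a 95% interval of -0.37 to 0.13 (adjusted p = 0.428 in limma). Its other 2 probes differed by -0.070 and 0.0056 in the probe fit, and both overlapped between groups. The interval of Notch2 excludes a 2-fold change in either direction. Notch3, the receptor of vascular smooth muscle and pericytes that is also made in the upper epidermis, was read by a probe at chr17:32257848-32257907 (mm9). It lay at 2.69, 2.92 and 2.91 in the vehicle arrays and at 3.18, 2.95 and 3.05 in the imiquimod arrays. The groups did not overlap, but the gap was narrow and the difference of 0.22 (95% interval -0.077 to 0.52, adjusted p = 0.231) did not pass. In the value table Notch3 differed by 0.13 and the groups overlapped, with imiquimod array 2 at 12.97 and vehicle array 3 at 13.01. Markers of mural cells were split, with 2 of 8 called higher, among them the pericyte gene Rgs5 at 1.36, and 1 lower, Cspg4 at -1.38. Their summed signal was 41.0 to 50.4 in the imiquimod arrays and 56.8 to 70.7 in the vehicle arrays. Such a sum weighs the brightest genes most, and the brightest of these markers was not called.

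**Figure D3:**
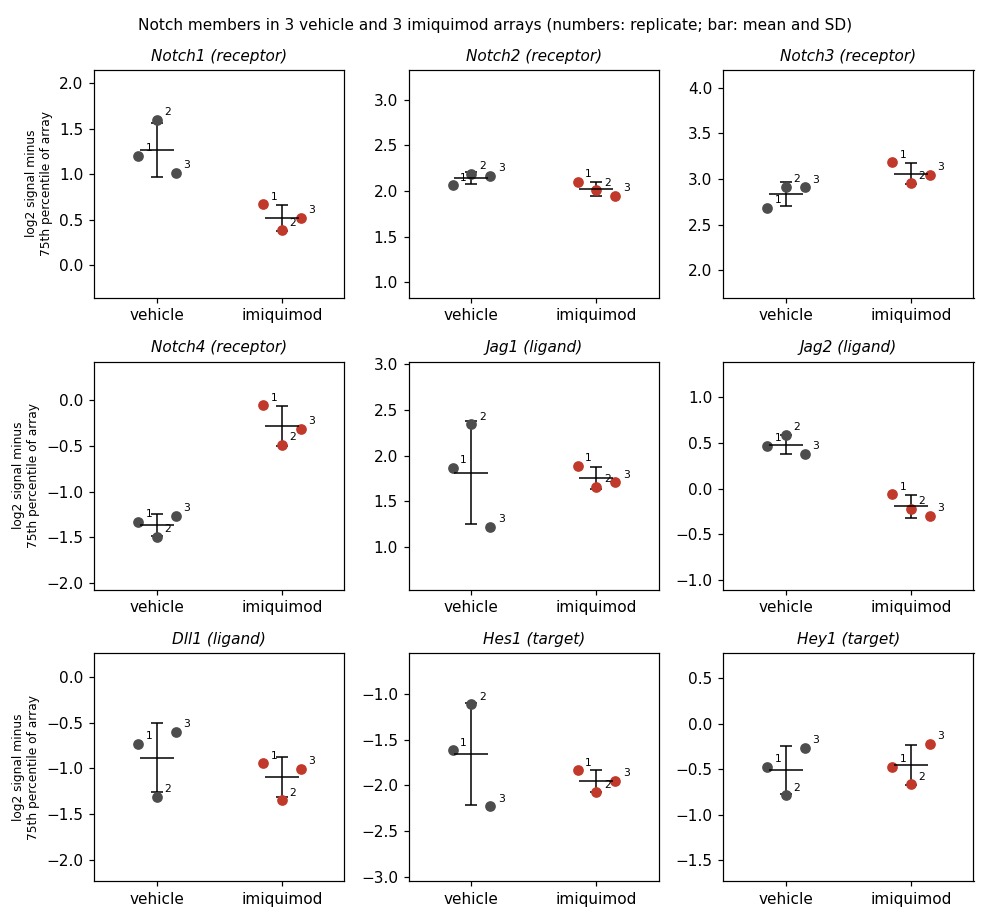
The log2 signal relative to the 75th percentile of the array (y axis, 2.5 log2 units in every panel) of each Notch gene in 3 vehicle (grey) and 3 imiquimod (red) arrays, numbered by replicate, with the mean and SD of each group. Notch1 and Jag2 separate downward and Notch4 upward, while the vehicle arrays of Jag1 and Hes1 are spread wider, with SDs of 0.56 each, than their imiquimod arrays.

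Of the ligands, Jag2 was the one that was called. Jag2 is a transmembrane ligand of the Serrate type, and its probe lies at chr12:114146887-114146946 (mm9). It read 0.47, 0.59 and 0.38 in vehicle arrays 1, 2 and 3. In imiquimod arrays 1, 2 and 3 it read -0.061, -0.22 and -0.30, below every vehicle array. Jag2 fell by 0.68 on the log2 scale (SE 0.12, adjusted p = 0.0136 in limma), a 1.60-fold lower signal, from 0.48 ± 0.10 to -0.20 ± 0.12 (SD, n = 3). The value table gave -0.69. A slide block ended the call (difference -0.54, adjusted p = 0.129, and within slide 1 at 0.266), as did a fit without imiquimod array 2 or 3 (adjusted p = 0.0586 and 0.0563), without vehicle array 1 (adjusted p = 0.0564) and without vehicle arrays 2 and 3 together (adjusted p = 0.0618). The replicate number as a block left it just called, at adjusted p = 0.0488.

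Jag1, the other ligand of that type, differed by -0.059 with a wide 95% interval of -0.76 to 0.64 (adjusted p = 0.897). Its brighter probe (chr2:136907433-136907492, mm9) read 1.87, 2.34 and 1.22 in vehicle arrays 1, 2 and 3. The imiquimod arrays, at 1.89, 1.66 and 1.71, all lay inside that range. The second probe, at chr2:136908942-136909001, differed by -0.10 and overlapped as well. The sign of the Jag1 difference rested on single arrays, being 0.21 without vehicle array 2 and -0.35 without vehicle array 3, with neither called.

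Dll1, a Delta-type ligand, was read by another probe spotted 10 times per array (chr17:15504623-15504682, mm9). It lay at -0.73, -1.31 and -0.60 in vehicle arrays 1, 2 and 3 and at -0.94, -1.35 and -1.0 in imiquimod arrays 1, 2 and 3. Vehicle array 2 and imiquimod array 2 were the lowest, and the groups overlapped. The SD of the spots within an array was 0.063 to 0.10, against an SD between arrays of 0.38 in vehicle and 0.22 in imiquimod skin. The difference of -0.22 (95% interval -0.77 to 0.34, adjusted p = 0.516) did not pass.

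Neither target gene passed. Hes1, a repressor of the bHLH family that active Notch induces, was read by a probe whose listed ends are chr16:30065983-30066278 (mm9). It lay at -1.61, -1.11 and -2.23 in vehicle arrays 1, 2 and 3, and the imiquimod arrays, at -1.84, -2.08 and -1.95, lay within that range. The difference was -0.30 (95% interval -1.0 to 0.40, adjusted p = 0.475), and without vehicle array 3 it was -0.59 (adjusted p = 0.0773). Hey1, a related repressor with a role in vessels, was read at chr3:8663432-8663491 (mm9). It lay at -0.47, -0.79 and -0.27 in the vehicle arrays and at -0.47, -0.67 and -0.22 in the imiquimod arrays, so the ranges overlapped almost throughout. The difference of 0.055 had a 95% interval of -0.40 to 0.51 (adjusted p = 0.854), which excludes a 2-fold change in either direction.

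The hair follicle genes varied between the vehicle arrays in the order in which Notch1, Jag1 and Hes1 did. The summed signal of 10 genes of the hair matrix and inner root sheath was 711, 1186 and 127 in vehicle arrays 1, 2 and 3. It was 7.23, 7.53 and 8.70 in the imiquimod arrays, so all of these lay far below. Of the 10 genes 7 were called lower, with a median difference of -3.88. Krt71, a keratin of the inner root sheath, read 8.32, 8.80 and 6.06 in vehicle arrays 1, 2 and 3. It was well above background on 2 of the 3 imiquimod arrays, which read -5.08, -4.51 and -3.24. Krt25, another such keratin, was above background on 0 imiquimod arrays and at least 2363-fold lower there, and it entered the test only through the vehicle arrays. For the summed hair signal vehicle array 2 was the highest and vehicle array 3 the lowest of its group, although Gata3, on the same list, was highest in vehicle array 1. The order of the sum was also that of Notch1, Jag1, Jag2 and Hes1. Notch4, Dll1 and Hey1 had the reverse order, and Notch2 and Notch3, with vehicle array 1 lowest, had neither. Only 3 arrays set these orders, and the share of all genes with either order was not counted. Vehicle arrays 2 and 3, the highest and lowest of the sum, are those marked evaluate by the scanner software's quality report. The SDs of Jag1 and Hes1 were 0.12 each in the imiquimod arrays and 0.56 each in the vehicle arrays. For Notch1 they were 0.14 and 0.30, and for Jag2, which had the same vehicle order, 0.12 and 0.10. Over all 9 Notch genes the SD was larger in vehicle skin in 6, a share of 66.7%, against 69.6% of all genes tested. The part of the hair follicle in these results was not tested.

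**Figure D4:**
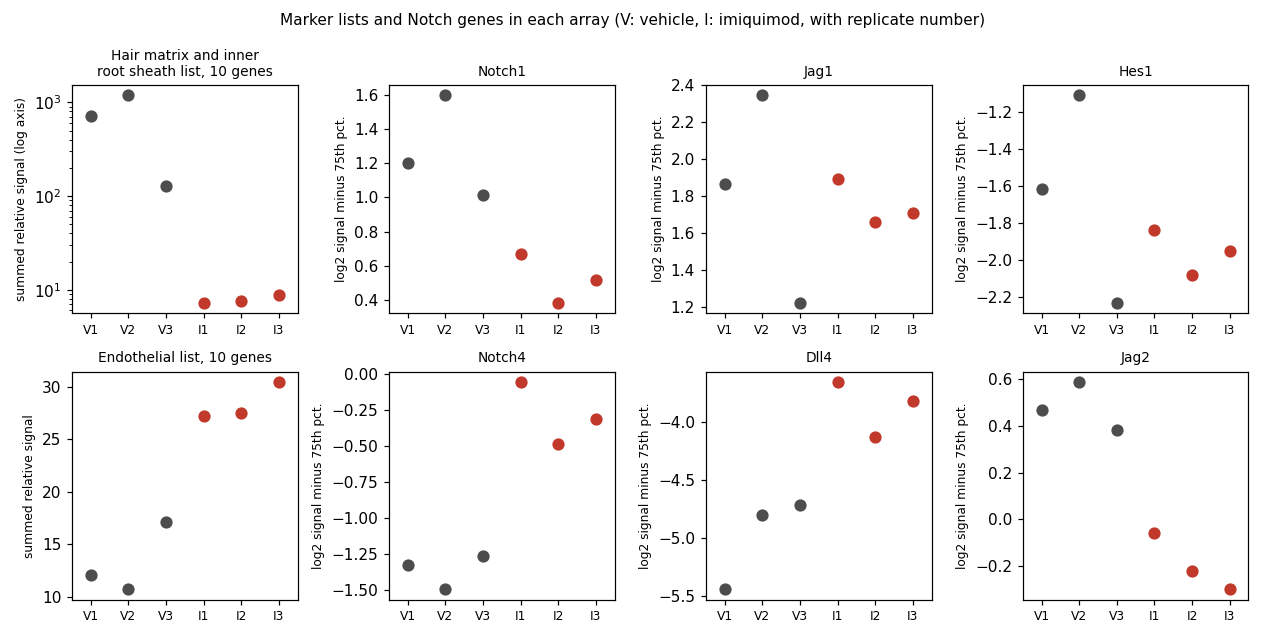
Summed signal of the hair list (log axis) and of the endothelial list (linear axis), as multiples of the 75th percentile signal, beside the log2 level of Notch1, Jag1, Hes1, Notch4, Dll4 and Jag2 in each array (x axis, V vehicle in grey, I imiquimod in red). Within the vehicle arrays the hair list runs 711, 1186 and 127, and Notch1, Jag1 and Hes1 share that order, while Notch4 and the endothelial list are higher in all 3 imiquimod arrays.

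The rest of the pathway was examined through 4 further lists with 50 genes, 46 of which were tested. The median difference of the 46 genes was -0.011. In all 8 were called higher and 2 lower, against 13.1% and 10.5% of all genes, and 36 did not pass. The counts were 6 and 2 with quantile normalization or the value table. They rest on few arrays: they were 0 and 1 without imiquimod array 1, 3 and 0 without imiquimod array 2, 0 and 0 without imiquimod array 3, 1 and 0 without vehicle array 1, 1 and 1 without vehicle arrays 2 and 3, 4 and 1 when dim probes were kept, 0 and 1 with the replicate block, and 0 and 0 with slide as a block or within slide 1.

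Of 10 genes of receptor cleavage 4 were called higher, against 13.1% of all genes, and their median was 0.44. Adam10, the protease that makes the ligand-dependent cut, rose by 0.56 (SE 0.11, adjusted p = 0.0183), and all its imiquimod levels, -2.06, -2.23 and -2.03, lay above the vehicle levels of -2.67, -2.59 and -2.73. Adam17, a related sheddase, rose by 0.51 (adjusted p = 0.0463), a call that was lost in 12 of 17 alternatives, among them quantile normalization (adjusted p = 0.0598) and the authors' value table (adjusted p = 0.0606). Ncstn, a subunit of gamma-secretase, rose by 0.50 (SE 0.12, adjusted p = 0.0297), and that call was lost in 11 of 17 alternatives. The Adam10 call was lost in 7. Adam10, Adam17 and gamma-secretase also cut many proteins other than Notch.

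In the nuclear complex 1 of 12 genes fell and 11 did not pass, with a median of -0.052. Rbpj, the DNA-binding partner of all 4 receptors, differed by -0.033 (SE 0.12, adjusted p = 0.866). Kat2b, an acetyltransferase, fell by 0.55 (SE 0.11, adjusted p = 0.0191), a call that was lost in 8 of 17 alternatives. The corepressor genes Ncor1 (-0.28, adjusted p = 0.108) and Hdac1 (0.28, adjusted p = 0.283) did not pass. Among 17 tested modifiers and turnover genes 2 rose, both of them glycosyltransferase genes. Pofut2, whose enzyme is known for adding fucose to thrombospondin repeats rather than to the EGF repeats of Notch, rose by 0.63 (adjusted p = 0.0143), and Rfng, a fringe that modifies Notch sugars, rose by 0.65 (adjusted p = 0.0446). The Pofut2 call was lost in 6 of 17 alternatives and the Rfng call in 12. Dtx2, a ubiquitin ligase gene, was the next by p at 0.36 (adjusted p = 0.0521), and the list's median was -0.078.

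Of the other ligands and targets 2 of 7 tested genes rose, 4 did not pass, and Hes5, which had no imiquimod array above background, was called lower. Dlk1, an atypical ligand without the domain that activates the receptor, rose by 1.64 (SE 0.34, adjusted p = 0.0212), from -3.27 ± 0.51 to -1.63 ± 0.46 (SD, n = 3). The Dlk1 call was lost in 7 of 17 alternatives. Hes5, a target gene of the same family as Hes1, was well above background on 3 vehicle and 0 imiquimod arrays. Its vehicle levels were -1.33, -1.30 and -5.10, and the imiquimod probe read -6.71, -7.64 and -7.35, below all of them. In the group mean it was at least 6.46-fold higher in vehicle skin, measured against the lowest signal well above background on each array. Hes5 entered the test only through the vehicle arrays, so its call as lower follows in part from how it was admitted. It was not tested when probes had to be above background on all 6 arrays. In 8 of the 16 alternatives that tested Hes5, its call was lost. Vehicle array 3 was the low one, as for the summed hair genes. Heyl, another target gene, showed the same low array, at -2.39 in vehicle array 3 against -0.019 and 0.45 in vehicle arrays 1 and 2, and did not pass (-0.11, adjusted p = 0.927). Nrarp, a feedback inhibitor of the pathway, differed by 0.46 (adjusted p = 0.225).

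The genes whose levels followed each Notch gene most closely were listed by Pearson's r over the 6 arrays, among 14887 named genes. These values describe arrays that fall into 2 groups, so they also read the group difference. Each gene listed was picked as 1 of the 2 highest of 14887 over 6 arrays, so a high r can arise from the picking alone. Notch1 was closest to Mgst3, a microsomal glutathione transferase (r = 0.999), and C2cd4b (0.996), which differed by -0.92 and -3.46. Jag2 was closest to Lsr, a receptor of tricellular junctions (0.997), and F2rl1, a protease-activated receptor of keratinocytes (0.993), at -1.26 and -1.05. For Notch4 they were Hdlbp (0.999) and Ripk3, a kinase of necroptosis (0.998), at 0.67 and 1.55. Notch3 was nearest to the desmosomal plaque gene Dsp (0.998) and to Treml1 (0.993), and Notch2 to the coactivator gene Crebbp (0.997) and Taf1 (0.986). Jag1 was nearest to Ftsj1 (0.994) and Smarca5 (0.993), Dll1 to E2f6 (0.996) and Fbxl16 (0.988), Hes1 to Atn1 (0.999) and Smyd2 (0.998), and Hey1 to Zfyve1 (0.996) and Mob2 (0.995).

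**Figure D5:**
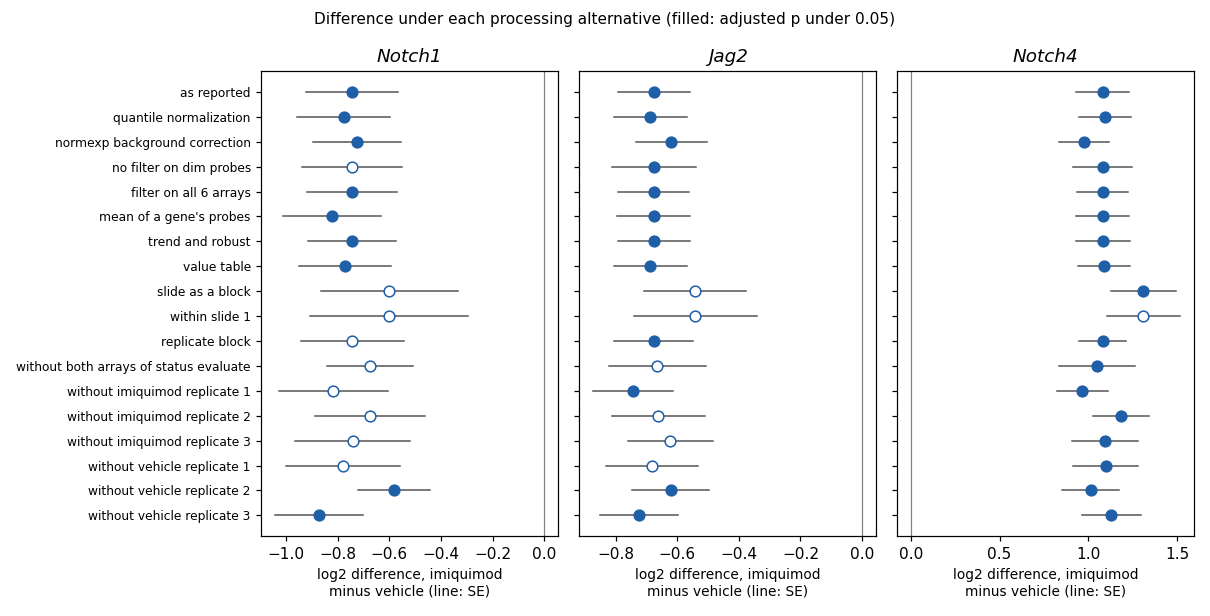
The log2 difference between imiquimod and vehicle arrays (x axis, with SE) of Notch1, Jag2 and Notch4 as reported and under 17 alternatives (y axis), filled where the adjusted p was under 0.05. Every difference keeps its sign, and Notch4 stays called in 16 alternatives, Jag2 in 11 and Notch1 in 8.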

How the data were processed

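Total RNA of whole skin, extracted with TRIzol per the labels, was amplified linearly and labelled with Cy3. The deposited scanner files hold spot intensity on a linear scale, background-subtracted and detrended by Agilent Feature Extraction 10.7.3.1 per the file headers (version 9.1 per the submitters' processing notes). The value table the authors deposited holds log2 values: its columns rose by 0.973 to 1.01 per log2 unit of the matching array, their medians were 7.06, and the authors' normalization between arrays is not given in the sources used here.

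Control spots and 322 spots flagged as outliers on any array were left out. Log2 processed signals were averaged per probe, and the 75th percentile over probes was subtracted. Probes well above background on at least 3 of 6 arrays were tested (27415), and a gene was represented by its brightest such probe. The test was limma (version 3.58.1, R 4.3.3), two-sided, with no covariate and Benjamini-Hochberg adjustment. The same fit was also run on 3 against 3 simulated arrays with the gene means and spreads of these data. It recovered 0% of genes changed by 0.5 on the log2 scale, 34% at 1, 70% at 2 and 90% at 3. Only 50 genes were changed at each size, fewer than were called in these data, so these shares do not carry over directly. Probe positions are the files' own (mm9), and no exon annotation of that build was used here. The members and gene lists were chosen with earlier results of these data known. The named genes were all members, the 3 of smallest p in each pathway list and any others called where 5 or fewer of the list passed, 2 per marker list, and the 2 most alike per member; Rbpj, Heyl and Nrarp were added after their values were seen, and 1 gene that the rule names is not reported here. Deviations of same-numbered arrays correlated at -0.0872, 0.0676 and 0.0854 across genes. These values showed little deviation shared by number, but they cannot show whether the samples were paired.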

Additional observations from a re-analysis of the deposited data

How the results depend on the processing

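Over 17 alternatives, Notch1, Jag2, Notch4, Notch2, Notch3, Dll1 and Hes1 kept the sign of their difference, and no uncalled member became called. The Jag1 difference turned to 0.079 with slide as a block and within slide 1, and lay between -0.35 and 0.21 without single arrays. The Hey1 difference turned to -0.060 without imiquimod array 3 and lay between -0.085 and 0.18 without single arrays. The count of members called lower, 2 as reported, was 1 with no filter on dim probes, 1 with the replicate block, 0 with slide as a block, 0 within slide 1 and 0 without both arrays of status evaluate, where the lone vehicle array is assumed to vary like the imiquimod arrays. Leaving out single arrays gave 0 to 2. The count called higher, 1 as reported, was 0 within slide 1 and 1 in the other alternatives.

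Over all genes, 541 were higher and 518 lower with slide as a block, 7 and 1 within slide 1, and 1164 and 1043 with the replicate block, which ended the call of Notch1 but not those of Jag2 and Notch4. Leaving out single arrays gave 944 to 2514 higher and 745 to 2215 lower; the counts fell without imiquimod array 1, 2 or 3 or vehicle array 1. The cause was not tested. Slide 2 held imiquimod arrays alone, so the slide estimate rests on imiquimod array 1 against the 3 vehicle arrays.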

Other observations

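Markers of other cell types were tested in the same limma fit, and the 2 of smallest p in each list are named. All 5 tested neutrophil markers were higher in imiquimod-treated skin, with a median log2 difference of 4.05, among them the protease gene Mmp9 (2.80, adjusted p = 0.00266) and S100a8 (7.11, adjusted p = 0.00434), which is also on the hyperproliferative keratinocyte list. Another of the 5 is on that list too, so not all 5 are particular to neutrophils. Of 5 macrophage markers 3 were higher, with a median of 1.06, among them the endotoxin coreceptor gene Cd14 (2.39, adjusted p = 0.00324) and Adgre1 (2.74, adjusted p = 0.0111). Of 7 basal keratinocyte markers 3 were higher and 1 lower: Krt14 rose by 2.25 (adjusted p = 0.00155) and Krt15, a keratin of resting basal cells, fell by 2.12 (adjusted p = 0.00937). Of 9 suprabasal markers 3 were higher, among them Krt1 (1.71, adjusted p = 0.00958) and Calml3 (1.05, adjusted p = 0.0117). On the hyperproliferative list Krt6b rose by 5.41 (adjusted p = 0.00143) and Krt6a by 4.67 (adjusted p = 0.00167). Of 6 fibroblast markers 4 were higher, among them the collagen genes Col1a1 (0.89, adjusted p = 0.00361) and Col3a1 (1.11, adjusted p = 0.00903).

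Of 6 adipocyte markers 1 was lower, the leptin gene Lep (-2.07, adjusted p = 0.00549), and Fabp4 differed by -0.34 (adjusted p = 0.266). None of 6 tested T cell markers was called in limma, and 2 had an unadjusted p under 0.05. Cd3e differed by -0.76 (adjusted p = 0.102), and Cd4, which was well above background on 0 imiquimod arrays and entered the test only through the vehicle arrays, did not pass (adjusted p = 0.108). None of 4 melanocyte markers was called (0 with an unadjusted p under 0.05), with Dct at -1.52 (adjusted p = 0.167) and Mlana at -2.14 (adjusted p = 0.207). The melanocyte sum was 65.9, 110 and 12.0 in vehicle arrays 1, 2 and 3, the order of the hair genes, against 12.8 to 16.3 in the imiquimod arrays. None of 6 skeletal muscle markers was called (0 with an unadjusted p under 0.05), with Tnnt3 at -0.91 (adjusted p = 0.180) and Acta1 at -0.68 (adjusted p = 0.279).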
